A study of Saccharomyces cerevisiae with 10 samples.

Results

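The strain carrying the evolved alleles of both MDS3 and MKT1 was compared with the ancestral strain, to read the joint effect of the 2 alleles on messenger RNA levels. The comparison took its members by genotype label: 2 arrays of MDS3e MKT1e and 2 arrays of Ancestral, that is 4 of the 10 Affymetrix yeast arrays of the study. The 2 arrays each of MDS3e, which carries the evolved MDS3 allele alone, and of MKT1e, which carries the evolved MKT1 allele alone, were used to place the double strain against its single strains. All groups were haploid Saccharomyces cerevisiae of the genetic background Sce3044, and the genotype labels of these 4 strains name no other evolved allele. Each array held 1 culture, labelled a biological replicate, taken in logarithmic growth in a low-glucose defined medium with 0.25% dextrose and uracil, at an OD600 near 0.2, which took some 17 h. The labels do not say how many clones stand behind a strain. The values are linear intensities per probe set as the authors deposited them, and differences are given as log2 of the intensity plus 16, MDS3e MKT1e minus the other strain, ± standard error (SE) with n = 2 arrays a strain.

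Mkt1 is a cytoplasmic protein that acts with Pbp1 on messenger RNAs after transcription, and natural variants of MKT1 are known for effects on many yeast traits, among them mitochondrial ones. Mds3 is known as a negative regulator of early meiotic genes in this yeast, and its counterpart in Candida albicans has been connected with TOR signalling. The Ras, protein kinase A and TOR pathways favour ribosome production in rich conditions and hold back stress and storage programmes. In yeast, scarce phosphate activates the transcription factor Pho4 through the cyclin-dependent kinase Pho80-Pho85 and its inhibitor Pho81, and Pho4 then turns on phosphatases and phosphate transporters.

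The arrays fitted their labels as haploid MATa cultures. Between 5331 and 5355 of 5449 genes lay above the background limit on each of the 10 arrays, and the median SD between replicate arrays ran from 0.037 to 0.064 on the log2 scale, with 0.048 for MDS3e MKT1e and 0.064 for Ancestral. The 7 markers of MATa cells summed to intensities of 5962 and 5689 in MDS3e MKT1e, against 5699 and 6106 in Ancestral. The 4 markers of MATalpha cells summed to 100.1 and 112 in MDS3e MKT1e, against 130 and 115 in Ancestral, and 8 sporulation markers summed to 196 and 201 in MDS3e MKT1e, against 188 and 184 in Ancestral. The 6 haploid-specific markers summed to 1824 and 1743 in MDS3e MKT1e, against 1664 and 1624 in Ancestral. The number of arrays, 2 a strain, limits the precision, and the difference between MDS3e MKT1e and Ancestral had a median SE of 0.07.

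The evolved genes themselves were read first. MDS3 had intensities of 215 and 228 in MDS3e MKT1e, 215 and 208 in MDS3e and 236 and 224 in MKT1e, against 246 and 232 in Ancestral. The 2 MDS3e MKT1e arrays lay below both Ancestral arrays, and the difference of -0.11 ± 0.06 did not pass the test (adjusted p = 0.18, limma), although it passed at -0.19 after median centring or quantile normalization and at -0.18 after cyclic loess. MKT1 had intensities of 430.0 and 433 in MDS3e MKT1e, 510.2 and 503 in MDS3e and 385 and 348 in MKT1e, against 545 and 409 in Ancestral, so the double strain lay between the Ancestral arrays, with a difference of -0.13 ± 0.11 (adjusted p = 0.38) that passed, at -0.33, without Ancestral replicate 2. An amount of mRNA and the way a probe reads an evolved allele cannot be told apart here. PMA1, the gene of the plasma membrane proton pump, is not named as evolved in the labels of the strains compared. It fell by 0.43 ± 0.05 in MDS3e MKT1e relative to Ancestral (adjusted p = 0.00013, limma).

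Messenger RNA of 2107 of 5449 genes, 38.7%, differed between MDS3e MKT1e and Ancestral, at an adjusted p under 0.05 in limma after Benjamini-Hochberg adjustment. Of these, 1196 (21.9%) were higher and 911 (16.7%) lower in the double strain, and the median difference of all genes was 0.03. Most differences were small. The median size among the called genes was 0.31, the quartiles were 0.23 and 0.43, and 48 genes (0.881%) reached 2-fold, 29 (0.532%) higher and 19 (0.349%) lower. When each array was centred on its own median, 785 genes were higher and 1423 lower, with a median over all genes of -0.06, so the split between the directions depends on the scaling. In cultures measured in bulk, a change in the share of cells in some state and a change in mRNA per cell cannot be told apart. The double strain also differed from MDS3e in 937 genes (17.2%) and from MKT1e in 1440 genes (26.4%). Leaving out 1 array moved those counts, to 461 against MDS3e without MDS3e replicate 2 and 543 against MKT1e without MKT1e replicate 2. These comparisons use the same 2 arrays of the double strain, so their values are given side by side and their agreement is not counted.

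**Figure D1:**
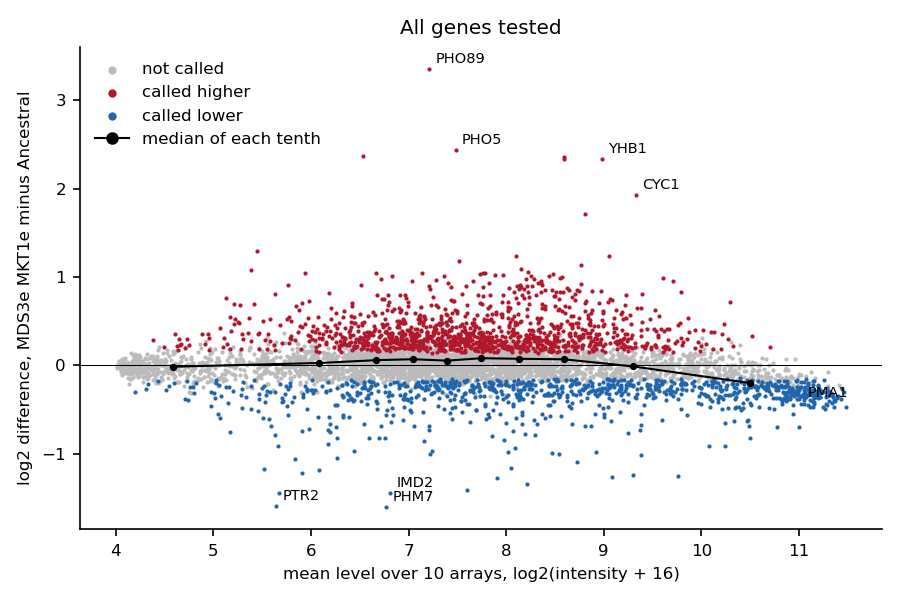
Log2 difference of MDS3e MKT1e minus Ancestral against the mean level over 10 arrays, 1 point per gene, with genes called higher in red and lower in blue and the black line joining the medians of 10 equal groups by level. The brightest 545 genes had a median of -0.20, while the other groups had medians from -0.01 to 0.08, and PHO89 at 3.36 was the largest rise.

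The phosphate regulon held both the largest rise and the largest fall among all 5449 genes. Of 16 measured genes of the list, 13 rose and 1 fell in MDS3e MKT1e relative to Ancestral, with a median of 1.04, while the median over all genes was 0.03. PHO89, the sodium and phosphate cotransporter of the plasma membrane, had intensities of 563 and 587 in MDS3e MKT1e, 393 and 402 in MDS3e and 71.2 and 67.6 in MKT1e, against 49.9 and 34.5 in Ancestral. The double strain was highest, MDS3e next and MKT1e closest to Ancestral, and no arrays of the double strain and Ancestral overlapped, at a difference of 3.36 ± 0.10 (adjusted p = 4.2e-08). The differences of log2(intensity + 16) understate the change of genes as dim as PHO89 was in Ancestral.

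Among the other phosphate transporters, PHO84, the high-affinity transporter of the plasma membrane, had intensities of 1652 and 1503 in MDS3e MKT1e, 1367 and 1531 in MDS3e and 1049.7 and 1072 in MKT1e, against 973 and 936 in Ancestral, and rose by 0.71 ± 0.09. PHO86, which is needed for Pho84 to leave the endoplasmic reticulum, rose by 0.80 ± 0.05. GIT1, the transporter of glycerophosphoinositol, rose by 0.30 ± 0.08, a call that was lost without Ancestral replicate 2 or MDS3e MKT1e replicate 2. In contrast to these, the low-affinity transporter genes PHO87, PHO90 and PHO91 differed by -0.10, -0.14 and -0.07, and none of them passed the test.

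The secreted and vacuolar phosphatases moved in the same direction. PHO5, the main secreted acid phosphatase, had intensities of 507 and 515 in MDS3e MKT1e, 274 and 263 in MDS3e and 78.2 and 83.98 in MKT1e, against 82.7 and 80.3 in Ancestral. The MKT1e arrays lay at the Ancestral level, the MDS3e arrays above them and the double strain highest, and the rise over Ancestral was 2.43 ± 0.08 (adjusted p = 6.1e-08). PHO11 encodes another secreted acid phosphatase and shares its probe set with a near-identical gene. It rose by 2.34 ± 0.15, with 1020.2 and 1196 in the double strain and 1016 and 1094 in MDS3e. PHO8, the vacuolar alkaline phosphatase, rose by 0.59 ± 0.05. PHM8, a phosphatase gene of the same list, differed by 0.01 and did not pass the test.

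Polyphosphate synthesis and the signalling arm were also higher. VTC3, VTC4 and VTC2, subunits of the vacuolar complex that makes polyphosphate, rose by 1.71 ± 0.08, 1.24 ± 0.08 and 0.85 ± 0.07, and VTC1 of the same complex differed by 0.23 without passing (adjusted p = 0.069). PHO81, the inhibitor of the Pho80-Pho85 kinase, had intensities of 463 and 464 in MDS3e MKT1e, 338 and 342 in MDS3e and 187 and 193 in MKT1e, against 191 and 184 in Ancestral. Replicates of PHO81 agreed closely in every strain, the double strain was highest, and the rise was 1.24 ± 0.05 (adjusted p = 3.1e-07). SPL2, which restrains low-affinity phosphate uptake, rose by 2.36 ± 0.14, and PHM6 by 2.37 ± 0.11. PHM7, which encodes a membrane protein, went the other way with 40.6 and 29.5 in MDS3e MKT1e, 36.6 and 33.9 in MDS3e and 161 and 175 in MKT1e, against 135 and 142 in Ancestral, and fell by 1.60 ± 0.09. Both strains with the evolved MDS3 allele were low for PHM7 and the MKT1e and Ancestral arrays high.

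The regulators upstream were nearly level. PHO4, the transcription factor of the pathway, had intensities of 193 and 187 in MDS3e MKT1e, against 184 and 192 in Ancestral, a difference of 0.01 ± 0.05 (adjusted p = 0.85). The cyclin gene PHO80 differed by 0.11 (adjusted p = 0.17). The kinase gene PHO85 fell by 0.17 ± 0.06 and the coactivator gene PHO2 rose by 0.17 ± 0.06, at adjusted p = 0.042 and 0.048, and those calls held under 11 and 7 of 25 alternatives. In all, 1 gene rose and 1 fell of 9 in this list of regulators and low-affinity transporters, where 21.9% of all genes rose and 16.7% fell.

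Set against each single strain, 7 of the 16 phosphate regulon genes passed the test relative to MDS3e, all of them higher, with a median of 0.26, where 17.2% of all genes passed. Relative to MKT1e 14 passed, 13 higher and 1 lower, with a median of 1.19, where 26.4% of all genes passed. PHO5 was 0.89 above MDS3e and 2.44 above MKT1e, and PHM6 0.85 and 2.17. For PHO89, PHO5, PHM6, SPL2, PHO81 and VTC3 the plots of single genes by array show the double strain highest and MDS3e next, with MKT1e and Ancestral well below.

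**Figure D2:**
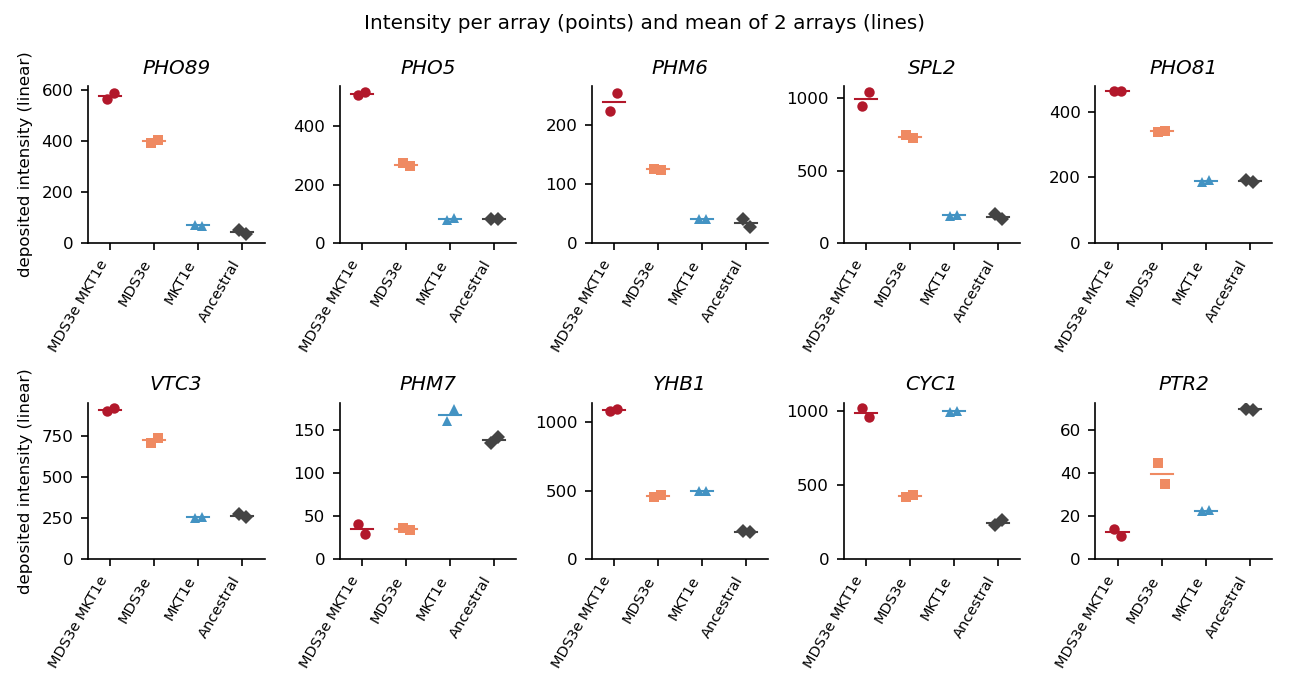
Deposited linear intensity of 10 genes in each array of MDS3e MKT1e, MDS3e, MKT1e and Ancestral, with points for the 2 arrays and lines for their means, on axes that start at 0. In MDS3e MKT1e the 6 phosphate genes from PHO89 to VTC3 and YHB1 were highest, PTR2 was lowest, and CYC1 stood near its level in MKT1e.

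Mitochondrial translation was the broadest group of higher genes. All 44 genes of the large subunit of the mitochondrial ribosome rose in MDS3e MKT1e relative to Ancestral, with differences from 0.34 to 1.06 and a median of 0.75. In the small subunit 30 of 31 rose with a median of 0.77, and MRPS12 at 0.14 did not pass (adjusted p = 0.069). MRPL24 of the large subunit had intensities of 409 and 391 in MDS3e MKT1e, 201 and 200.4 in MDS3e and 363 and 331 in MKT1e, against 191 and 176 in Ancestral. Both strains with the evolved MKT1 allele were high and both without it low. The rise of MRPL24 was 1.06 ± 0.06 (adjusted p = 1.6e-06), and those of MRPL15, MRPL4 and MRPL7 were 1.02 ± 0.07, 0.98 ± 0.06 and 0.92 ± 0.05.

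Other parts of the mitochondrial translation apparatus moved with the ribosome. Of 23 mitochondrial tRNA synthetases and translation factors 20 rose and 1 fell, with a median of 0.56. The initiation factor gene IFM1 rose by 1.05 ± 0.11, the elongation factor gene MEF1 by 1.03 ± 0.06, the ribosome recycling factor gene RRF1 by 0.97 ± 0.06, and the seryl- and arginyl-tRNA synthetase genes MSY1 and MSR1 by 0.96 ± 0.08 and 0.80 ± 0.07. MTO1, which modifies mitochondrial tRNA, rose by 1.18 ± 0.07, and MAM33, a matrix protein, by 1.13 ± 0.06. GTF1, a subunit of the mitochondrial glutamyl-tRNA amidotransferase, fell by 0.32 ± 0.05. The elongation factor gene TUF1 at 0.25 and the asparaginyl-tRNA synthetase gene SLM5 at -0.09 did not pass the test.

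These lists separated the double strain from MDS3e more than from MKT1e. Relative to MDS3e all 44 large-subunit genes were higher (median 0.65) and 30 of 31 small-subunit genes (median 0.65). Relative to MKT1e 9 large-subunit genes were higher and 2 lower (median 0.04), and 2 small-subunit genes were higher and 1 lower (median 0.08). Of all genes, 17.2% passed relative to MDS3e and 26.4% relative to MKT1e. MRP21 of the small subunit was the member farthest above both single strains, with 379.8 and 431 in MDS3e MKT1e, 244 and 248 in MDS3e and 300.4 and 253 in MKT1e, against 199 and 165 in Ancestral. Its arrays in the double strain lay above those of all 3 other strains.

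**Figure D3:**
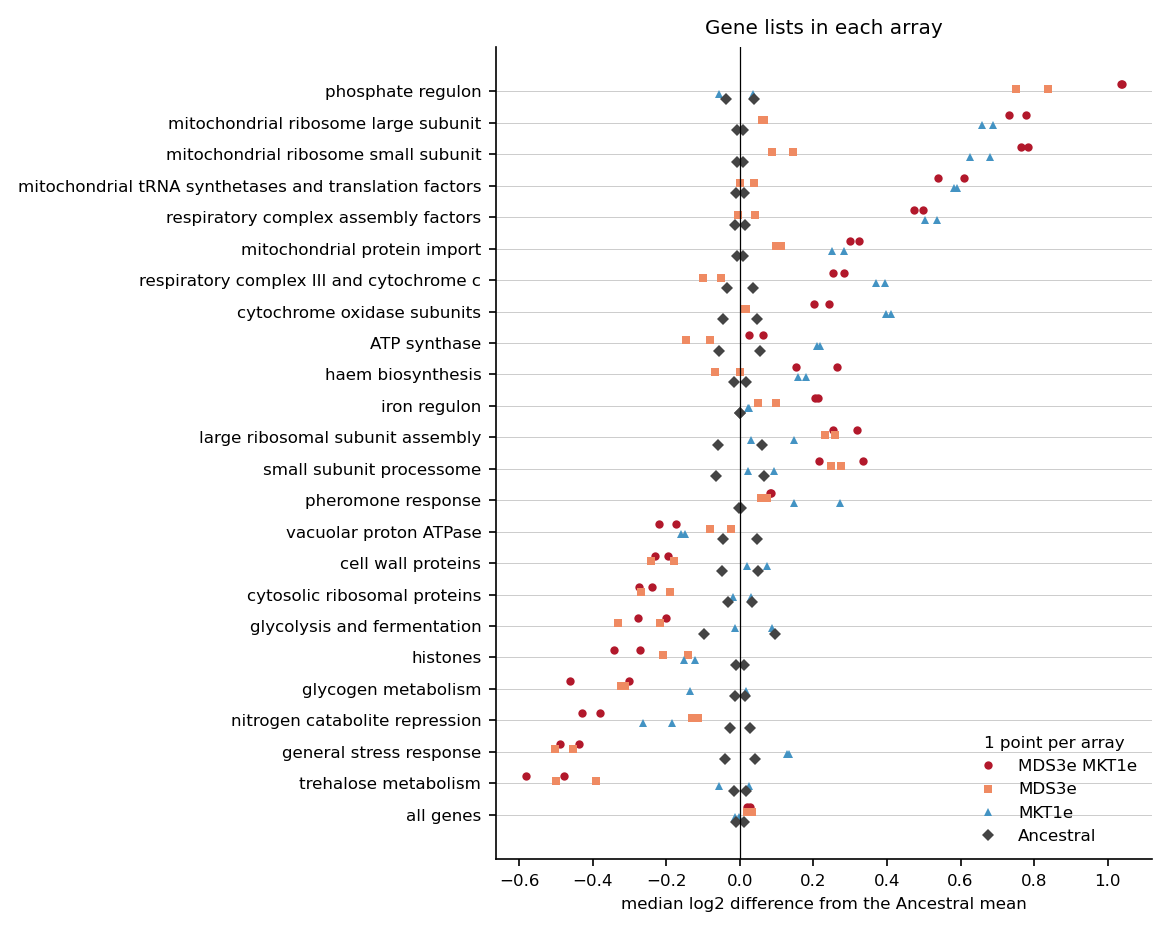
Median log2 difference from the Ancestral mean over the genes of each list, 1 point per array of MDS3e MKT1e, MDS3e, MKT1e and Ancestral. In MDS3e MKT1e the phosphate regulon stood at 1.04 in both arrays and the large subunit of the mitochondrial ribosome at 0.78 and 0.73, while the general stress list stood at -0.44 and -0.49.

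Assembly and import of mitochondrial complexes rose, but the subunits of the respiratory chain were mixed on the deposited scale. Of 38 assembly factors of respiratory complexes 32 rose and none fell (median 0.48), led by MZM1 of complex III, PET117 and COX10 of cytochrome oxidase, at 1.05 ± 0.06, 1.04 ± 0.09 and 1.02 ± 0.06. COX17, the copper chaperone, rose by 0.99 ± 0.08 and ATP12, an assembly factor of the ATP synthase, by 0.96 ± 0.07. Of 32 genes of protein import 24 rose (median 0.33), among them the motor subunit genes PAM18 and PAM16 by 0.67 ± 0.06 and 0.66 ± 0.10 and the processing peptidase genes MAS2 and MAS1 by 0.63 ± 0.09 and 0.58 ± 0.09.

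In the chain itself, 5 of 11 genes of complex III and cytochrome c rose and 1 fell, where 21.9% of all genes rose and 16.7% fell. CYC1, the main cytochrome c, had intensities of 1018 and 957 in MDS3e MKT1e, 419 and 435 in MDS3e and 994 and 999 in MKT1e, against 231 and 265 in Ancestral. The double strain and MKT1e stood together, MDS3e lay between them and Ancestral, and the rise was 1.93 ± 0.08 (adjusted p = 2.1e-07). CYT1, RIP1, QCR6 and COR1 of complex III rose by 0.46 ± 0.08, 0.37 ± 0.06, 0.37 ± 0.07 and 0.34 ± 0.06. QCR7 fell by 0.26 ± 0.08, and that call was lost after quantile normalization, after cyclic loess, and without Ancestral replicate 2 or MDS3e MKT1e replicate 2. Of 9 cytochrome oxidase subunits 5 rose and 1 fell, but without MDS3e MKT1e replicate 1 only 1 rose, and without MDS3e MKT1e replicate 2 or Ancestral replicate 2 only 3 did. COX6 rose by 0.38 ± 0.06, a call kept under all 25 alternatives. The number of oxidase subunits that rose was 6 after quantile normalization, 7 after cyclic loess and 3 after median centring, with 1 lower in each. In the list of complex III and cytochrome c 6 rose and none fell after quantile normalization or cyclic loess, and 5 rose and 1 fell after median centring.

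The list of hypoxic genes had members on both sides. Of 15 genes 2 rose and 3 fell, where 21.9% of all genes rose and 16.7% fell. COX5B, the hypoxic isoform of a cytochrome oxidase subunit, had intensities of 331 and 343 in MDS3e MKT1e, 467 and 399 in MDS3e and 444 and 485 in MKT1e, against 671 and 685 in Ancestral, and fell by 0.98 ± 0.08 (adjusted p = 1.5e-05). ANB1, the hypoxic translation factor eIF5A, fell by 0.61 ± 0.06 and HMG2, the hypoxic isoform of the sterol enzyme HMG-CoA reductase, by 0.40 ± 0.05. HEM13, a haem synthesis enzyme made when oxygen is short, and ROX1, the repressor of hypoxic genes, rose by 0.23 ± 0.06 and 0.25 ± 0.06.

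Of 7 NADH and succinate dehydrogenase genes 4 rose and 1 fell, where 21.9% of all genes rose and 16.7% fell. After cyclic loess 6 rose and 1 fell, and after median centring or quantile normalization 4 rose and 1 fell. NDE1 and NDI1, the external and internal NADH dehydrogenases, rose by 0.83 ± 0.05 and 0.62 ± 0.08, and SDH2 of succinate dehydrogenase by 0.40 ± 0.06. NDE2, the other external NADH dehydrogenase, fell by 0.60 ± 0.06, with 17.8 and 17.1 in MDS3e MKT1e, against 32.8 and 36.7 in Ancestral. Of 16 ATP synthase genes 4 rose and 1 fell (median 0.03), where 21.9% of all genes rose and 16.7% fell. ATP20 rose by 0.47 ± 0.07 and ATP1 fell by 0.39 ± 0.06, the second call being lost after quantile normalization, where 8 genes of the list rose. After cyclic loess 9 rose.

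Haem synthesis and metabolite carriers were split. HEM1, the first enzyme of haem synthesis, rose by 0.74 ± 0.07, HEM2 by 0.46 ± 0.06 and HEM3 by 0.36 ± 0.05, while HEM14 and HEM15, the last enzymes of the pathway, fell by 0.34 ± 0.06 and 0.28 ± 0.07. The call of HEM15 was lost without MDS3e MKT1e replicate 2. In all 5 of 8 haem genes rose and 2 fell, and 3 rose without MDS3e MKT1e replicate 1. After median centring, quantile normalization or cyclic loess 3 haem genes rose and 2 fell. Of 23 mitochondrial carriers 10 rose and 2 fell, where 21.9% of all genes rose and 16.7% fell. RIM2, the pyrimidine nucleotide carrier, and FLX1, linked to flavin transport, rose by 0.79 ± 0.06 and 0.60 ± 0.09. DIC1, the dicarboxylate carrier, had intensities of 252 and 256 in MDS3e MKT1e, 479 and 441 in MDS3e and 239.8 and 256 in MKT1e, against 518 and 526 in Ancestral, and fell by 1.00 ± 0.06. Both strains with the evolved MKT1 allele were low for DIC1. AAC1, an ADP/ATP carrier, fell by 0.28 ± 0.06. Of 10 ubiquinone synthesis genes 3 rose and 1 fell, where 21.9% of all genes rose and 16.7% fell. COQ2 was higher by 0.41 ± 0.07 and COQ4 lower by 0.46 ± 0.07.

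Few genes of the carbon pathways that feed the chain were higher. In the tricarboxylic acid cycle 1 of 12 genes rose and 3 fell, where 21.9% of all genes rose and 16.7% fell. The number that fell was 1 after quantile normalization or cyclic loess and 5 after median centring, and 1 to 5 when single arrays were left out. LSC2, a subunit of succinyl-CoA ligase, fell by 0.34 ± 0.08. In the list of the glyoxylate cycle, gluconeogenesis and acetate use 1 of 19 rose and 5 fell. ADH2, the glucose-repressed alcohol dehydrogenase, had intensities of 16.05 and 15.1 in MDS3e MKT1e, 63.9 and 53.4 in MDS3e and 15.2 and 17.4 in MKT1e, against 54.5 and 56.02 in Ancestral, and fell by 1.17 ± 0.07. The mitochondrial aldehyde dehydrogenase gene ALD4 fell by 0.63 ± 0.07 and the peroxisomal citrate synthase gene CIT2 by 0.48 ± 0.09.

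Genes for the use of poor nitrogen sources were lower. Of 24 measured genes under nitrogen catabolite repression 16 fell and 1 rose in MDS3e MKT1e, with a median of -0.40, where 16.7% of all genes fell. Yeast holds these genes down through GATA factors while a good nitrogen source is at hand. DAL4, the allantoin permease, had intensities of 15.7 and 15.5 in MDS3e MKT1e, 48.9 and 47.2 in MDS3e and 20.9 and 24.4 in MKT1e, against 67.6 and 72.5 in Ancestral. The double strain was lowest, the MKT1e arrays lay next and the MDS3e arrays between those and Ancestral, and it fell by 1.44 ± 0.09 relative to Ancestral (adjusted p = 1.8e-06).

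The allantoin pathway fell at several steps. The allantoate permease gene DAL5 fell by 1.16 ± 0.07, the allantoinase gene DAL1 by 0.82 ± 0.08, the allantoicase gene DAL2 by 0.66 ± 0.07 and the malate synthase gene DAL7 by 1.24 ± 0.07. DAL3, of a later step of that pathway, differed by -0.03 and did not pass the test. DAL80, a repressor of the same genes, was lower too, by 0.93 ± 0.12, with 245 and 182 in MDS3e MKT1e, 429 and 434 in MDS3e and 120.4 and 152 in MKT1e, against 422 and 412 in Ancestral. DAL80 and DAL5 were higher in the double strain than in MKT1e, by 0.59 ± 0.12 and 0.51 ± 0.07.

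Uptake of other nitrogen compounds was lower too. GAP1, the general amino acid permease, had intensities of 1159 and 1152 in MDS3e MKT1e, 1516 and 1494 in MDS3e and 1334 and 1356 in MKT1e, against 1728 and 1823 in Ancestral, and fell by 0.61 ± 0.05. The double strain lay below both single strains. The urea permease gene DUR3 fell by 0.73 ± 0.07, the proline permease gene PUT4 by 0.84 ± 0.11, the glutamine synthetase gene GLN1 by 0.54 ± 0.06, and the vacuolar carboxypeptidase gene CPS1 by 0.65 ± 0.05. Of the ammonium permeases MEP2 fell by 0.41 ± 0.08 (lost after quantile normalization) and MEP3 rose by 0.49 ± 0.05. The transcription factor gene GAT1 fell by 0.16 ± 0.06, a call kept under 13 of 25 alternatives.

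Of 20 amino acid and peptide permeases 8 fell and 1 rose, where 16.7% of all genes fell and 21.9% rose. PTR2, the di- and tripeptide transporter, had intensities of 14.03 and 10.99 in MDS3e MKT1e, 44.7 and 34.8 in MDS3e and 22.4 and 22.9 in MKT1e, against 69.9 and 69.5 in Ancestral. Its double-strain arrays were the lowest of these strains, and it fell by 1.59 ± 0.09 (adjusted p = 1.6e-06). The oligopeptide transporter gene OPT1 fell by 0.82 ± 0.07, DIP5, which imports glutamate and aspartate, by 1.04 ± 0.18, and the arginine permease gene CAN1 by 0.35 ± 0.05. TAT2, the tryptophan permease, rose by 0.34 ± 0.06. Relative to the single strains, the nitrogen list had 11 lower and 1 higher against MDS3e (median -0.18) and 7 lower and 5 higher against MKT1e (median 0.02). The shares of all genes that passed these 2 comparisons were 17.2% and 26.4%.

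Stress and storage genes were lower. Of 50 general stress genes 41 fell and none rose, with a median of -0.45. These genes are induced in many kinds of stress by Msn2 and Msn4, which protein kinase A holds in check. GAD1, glutamate decarboxylase, had intensities of 133 and 117 in MDS3e MKT1e, 151 and 151 in MDS3e and 263 and 291 in MKT1e, against 317 and 333 in Ancestral. Both strains with the evolved MDS3 allele were low and did not overlap Ancestral, and it fell by 1.28 ± 0.08 (adjusted p = 1.6e-06). FMP16 fell by 1.41 ± 0.08, MSC1 fell by 1.26 ± 0.06 and DDR2 fell by 1.25 ± 0.08. The carboxypeptidase inhibitor gene TFS1 fell by 1.01 ± 0.07, the transaldolase gene NQM1 by 0.97 ± 0.14, and the small heat shock protein gene HSP12 by 0.70 ± 0.06.

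Not all stress genes took part. CTT1, cytosolic catalase, fell by 0.53 ± 0.09, but HSP26 at -0.16 and HSP104 at -0.18 did not pass. In the list of heat shock proteins and chaperones 2 of 21 rose and 5 fell, where 21.9% of all genes rose and 16.7% fell. That balance depended on the scaling, with 5 higher and 2 lower after quantile normalization, 6 and 2 after cyclic loess, and 0 and 8 after median centring. SSE2, a nucleotide exchange factor of Hsp70, fell by 0.50 ± 0.07. Against the single strains, 40 stress genes were lower and 1 higher than in MKT1e (median -0.68), and 12 were higher and 4 lower than in MDS3e (median 0.06). The shares of all genes that passed were 26.4% against MKT1e and 17.2% against MDS3e. The stress gene DDR2 had 456 and 469 in MDS3e MKT1e, 377 and 336 in MDS3e and 1487 and 1566 in MKT1e, against 1051 and 1193 in Ancestral. YGP1, a secreted glycoprotein, fell by 0.91 ± 0.08 relative to Ancestral and was 0.90 ± 0.08 higher than in MDS3e.

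Trehalose genes fell in 5 of 7 cases, with a median of -0.55. TPS1 and TPS2, the trehalose-6-phosphate synthase and phosphatase, fell by 0.56 ± 0.08 and 0.55 ± 0.06, and the subunit gene TSL1 by 0.62 ± 0.07. The trehalase genes NTH1 and ATH1 fell as well, by 0.57 ± 0.07 and 0.48 ± 0.07. Of 14 glycogen genes 9 fell with a median of -0.39. GPH1, glycogen phosphorylase, had intensities of 447 and 413 in MDS3e MKT1e, 411 and 418 in MDS3e and 694 and 706 in MKT1e, against 741 and 743 in Ancestral, and fell by 0.77 ± 0.06. GSY2, glycogen synthase, fell by 0.73 ± 0.07, the branching enzyme gene GLC3 by 0.59 ± 0.07 and the phosphoglucomutase gene PGM2 by 0.68 ± 0.06, so genes of synthesis and of breakdown were both lower. Of 6 stationary-phase markers the summed intensity was 512 and 524 in MDS3e MKT1e, against 503 and 560 in Ancestral, and SPG5 made up most of it with 391 and 399.5 in MDS3e MKT1e, against 374 and 422 in Ancestral. SPG4 had 8.10 and 9.22 in MDS3e MKT1e, against 24.4 and 26.5 in Ancestral, SIP18 had 16.7 and 15.3 in MDS3e MKT1e, against 24.2 and 28.6 in Ancestral and SNO1 had 6.19 and 7.93 in MDS3e MKT1e, against 4.28 and 3.45 in Ancestral, so single markers lay on both sides.

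Genes that build ribosomes were higher. In the small subunit processome 36 of 57 genes rose and none fell (median 0.28), and in large subunit assembly 44 of 66 rose and none fell (median 0.29). Among all genes 21.9% rose and 16.7% fell. RRP15, needed for the large subunit, had intensities of 359.8 and 397 in MDS3e MKT1e, 317 and 334 in MDS3e and 258 and 225 in MKT1e, against 213 and 183 in Ancestral, and rose by 0.88 ± 0.09 (adjusted p = 3.4e-05). The order was the double strain and MDS3e on top and MKT1e and Ancestral below. NOG1, a GTPase of large-subunit assembly, rose by 0.70 ± 0.08, and PWP2, UTP7 and IMP3 of the processome by 0.63 ± 0.08, 0.63 ± 0.08 and 0.58 ± 0.05. Without Ancestral replicate 2 or MDS3e MKT1e replicate 2 the processome count was 20 or 21 and the large-subunit count 29 or 24. The 2 counts were 26 and 33 after median centring, 27 and 34 after quantile normalization, and 28 and 36 after cyclic loess. Relative to MDS3e 3 processome genes were higher, and relative to MKT1e 24, where 17.2% and 26.4% of all genes passed in either direction. Of 36 genes of RNA polymerases I and III 14 rose and 1 fell, among them the polymerase III subunit genes RPC17 and RPC53, by 0.55 ± 0.10 and 0.43 ± 0.06.

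The proteins of the cytosolic ribosome went the other way on the deposited scale. Of 128 measured genes 88 fell and 3 rose, with a median of -0.26, and 22 of them were read by probe sets that can pick up a close copy. RPS31 had intensities of 2377 and 2260.0 in MDS3e MKT1e, 2207 and 2336 in MDS3e and 3319 and 3421 in MKT1e, against 3042 and 3377 in Ancestral, and fell by 0.46 ± 0.06. Both strains with the evolved MDS3 allele were low. After quantile normalization 12 rose and 8 fell with a median of 0.01, after cyclic loess 10 rose and 9 fell, and without MDS3e MKT1e replicate 2 the number that fell was 57. These genes are among the brightest on the arrays, and the brightest 545 genes had a median of -0.20. The part of this shared shift in the ribosomal protein values was not tested.

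Glycolysis and histones showed the same dependence. Of 17 genes of glycolysis and fermentation 10 fell (median -0.28), against none after quantile normalization or cyclic loess, 3 without MDS3e MKT1e replicate 2 and 5 without Ancestral replicate 2. FBA1, aldolase, had intensities of 1935 and 1848 in MDS3e MKT1e, against 2366 and 2699 in Ancestral, and its fall of 0.42 ± 0.08 was lost after either of these normalizations. Of 9 histone genes 6 fell (median -0.33), against 1 after quantile normalization, and HTA1 fell by 0.49 ± 0.05, with 2016 and 2072 in MDS3e MKT1e, against 2856 and 2896 in Ancestral, a call lost after quantile normalization.

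Sugar uptake genes changed in both directions. Of 19 measured hexose transporters and sensors 3 rose and 3 fell, where 21.9% of all genes rose and 16.7% fell. HXT4 had intensities of 1068 and 1129 in MDS3e MKT1e, 935 and 900.2 in MDS3e and 813 and 832 in MKT1e, against 593 and 529.8 in Ancestral, and rose by 0.95 ± 0.07, with the double strain highest. MIG2, a glucose-induced repressor, rose by 0.55 ± 0.08 relative to Ancestral and was 0.44 ± 0.08 lower than in MDS3e. HXT5, which is induced when growth slows, fell by 1.06 ± 0.08, with 15.4 and 15.04 in MDS3e MKT1e, 12.5 and 11.9 in MDS3e and 90.1 and 76.6 in MKT1e, against 49.4 and 48.8 in Ancestral.

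Iron genes were higher to a small extent. Of 30 genes of the iron regulon 15 rose and none fell, with a median of 0.23, where 21.9% of all genes rose. FET4, a low-affinity iron transporter, had intensities of 45.7 and 41.7 in MDS3e MKT1e, 36.1 and 31.99 in MDS3e and 22.1 and 21.1 in MKT1e, against 21.8 and 19.7 in Ancestral, and rose by 0.70 ± 0.07. TIS11, which promotes the decay of messenger RNAs when iron is short, rose by 0.69 ± 0.09 and stood above all 3 other strains. FRE1, a ferric reductase, rose by 0.51 ± 0.06, FET3, the ferroxidase of high-affinity uptake, by 0.35 ± 0.08, and the siderophore transporter gene ARN1 by 0.38 ± 0.09, the last call being lost without MDS3e MKT1e replicate 1.

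At the cell surface, 17 of 32 cell wall genes fell and 3 rose, with a median of -0.21 that was -0.00 after quantile normalization, where 7 fell. Without Ancestral replicate 2 or MDS3e MKT1e replicate 2 the number that fell was 10 or 9. CWP1, a mannoprotein, had intensities of 791 and 846 in MDS3e MKT1e, 1073 and 1114 in MDS3e and 1323 and 1398 in MKT1e, against 1501 and 1605 in Ancestral, and fell by 0.91 ± 0.06, the double strain being lowest. TIP1 fell by 0.82 ± 0.09, while GSC2, a glucan synthase, and SCW10 rose by 0.65 ± 0.10 and 0.49 ± 0.05. Of 16 vacuolar ATPase genes 10 fell (median -0.21), 5 after quantile normalization, 6 without Ancestral replicate 2 and 5 without MDS3e MKT1e replicate 2. VMA13 fell by 0.49 ± 0.07 and VMA1 by 0.45 ± 0.06.

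In the pheromone response 9 of 26 genes rose and 2 fell, where 21.9% of all genes rose and 16.7% fell. FUS1, of cell fusion, rose by 0.65 ± 0.08, the agglutinin gene AGA1 by 0.60 ± 0.07, and SST2, which ends the pheromone signal, by 0.59 ± 0.07. PRM2 and FIG2 of the same list fell by 0.34 ± 0.08 and 0.21 ± 0.06. AGA1 stood between the single strains, with 195 and 216 in MDS3e MKT1e, 134 and 131 in MDS3e and 240.1 and 264 in MKT1e, against 126 and 135 in Ancestral. HO, the endonuclease of mating-type switching and a known Mkt1 target, rose by 0.31 ± 0.07, a call lost without MDS3e MKT1e replicate 1. Of the 6 genes listed as partners or targets of Mkt1 3 rose and none fell, beside the same shares of all genes. The number that rose was 2 after median centring or cyclic loess and 1 after quantile normalization. PUF3, whose product binds mRNAs of mitochondrial proteins, differed by 0.11 (adjusted p = 0.42), with 54.2 and 47.6 in MDS3e MKT1e, 54.4 and 47.5 in MDS3e and 33.6 and 29.3 in MKT1e, against 52.4 and 40.2 in Ancestral.

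Amino acid and nucleotide synthesis changed gene by gene. ARO9, the aminotransferase of aromatic amino acid breakdown, had intensities of 51.7 and 64.02 in MDS3e MKT1e, 35.5 and 41.01 in MDS3e and 16.2 and 19.7 in MKT1e, against 15.1 and 12.9 in Ancestral, and rose by 1.29 ± 0.09. In its list 5 of 15 genes were higher and 1 lower, where 21.9% of all genes rose and 16.7% fell. MET8 and MET13 of sulfur and methionine metabolism rose by 0.78 ± 0.06 and 0.59 ± 0.05, and the arginine genes ARG7 and ARG2 by 0.54 ± 0.07 and 0.46 ± 0.08. BAT2, the cytosolic branched-chain aminotransferase, fell by 0.66 ± 0.09. URA8, the minor CTP synthase, fell by 0.98 ± 0.09, with 171 and 183 in MDS3e MKT1e, 323 and 362 in MDS3e and 165 and 188 in MKT1e, against 338 and 396 in Ancestral. IMD2, an IMP dehydrogenase gene whose probe set can read its close copies, had 84.1 and 86.6 in MDS3e MKT1e, 397 and 311 in MDS3e and 22.5 and 25.1 in MKT1e, against 274 and 248 in Ancestral, and fell by 1.45 ± 0.10, while its relative IMD3 fell by 0.38 ± 0.05.

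The remaining lists had few members that changed or members on both sides. Their counts stand beside 21.9% higher and 16.7% lower among all genes. Higher and lower counts were 4 and 6 of 20 for oxidative stress defence, 2 and 7 of 28 for autophagy, 0 and 5 of 19 for cytosolic aminoacyl-tRNA synthetases and 2 and 6 of 33 for the proteasome. They were 3 and 1 of 8 for arginine synthesis, 1 and 2 of 14 for lysine and histidine, 1 and 1 of 11 for branched-chain amino acids, 5 and 4 of 24 for sulfate and methionine, 4 and 9 of 20 for purines and one-carbon units and 1 and 2 of 12 for pyrimidines. They were 4 and 9 of 23 for ergosterol, 4 and 10 of 25 for fatty acids and phospholipids, 1 and 2 of 10 for daughter-specific cell separation, 1 and 1 of 16 for entry into meiosis, 4 and 0 of 21 for cyclins and cell cycle regulators, 8 and 2 of 33 for regulators of the Ras, protein kinase A, TOR and stress pathways, and 0 and 3 of 8 for retrograde targets. Within the signalling list the phosphodiesterase gene PDE2 rose by 0.35 ± 0.05, and IRA1, which switches Ras off, and GPA2, which activates adenylate cyclase, fell by 0.33 ± 0.05 and 0.32 ± 0.05. Several of these counts moved with the scaling. The signalling list had 1 higher and 9 lower after median centring or quantile normalization, and after quantile normalization 4 purine, 3 ergosterol, 5 fatty acid and 3 oxidative stress genes fell. In the branched-chain list 5 rose and 1 fell after quantile normalization or cyclic loess. Without MDS3e MKT1e replicate 1, the numbers that fell were 5 for purines, 4 for ergosterol, 4 for fatty acids and 3 for the proteasome.

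A smaller set of genes set the double strain apart from every strain of the factorial. In 134 genes (2.46%) MDS3e MKT1e passed the test in the same direction against Ancestral, MDS3e and MKT1e, 90 (1.65%) of them higher and 44 (0.807%) lower. The 3 comparisons share the arrays of the double strain, so the count has no test of its own. It was 62 without MKT1e replicate 2, 73 or 67 without MDS3e replicate 1 or 2, and 64 or 67 without MDS3e MKT1e replicate 1 or 2. YHB1, the flavohaemoglobin that removes nitric oxide, had intensities of 1081 and 1098 in MDS3e MKT1e, 452 and 468 in MDS3e and 500.1 and 498 in MKT1e, against 209 and 197 in Ancestral. Each single strain stood above Ancestral and the double strain above both, by 2.34 over Ancestral, 1.22 over MDS3e and 1.10 over MKT1e. On the log2 scale its interaction term was -0.02 ± 0.12 (adjusted p = 0.99).

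Besides PHO5, PHM6, PHO89, ARO9, TIS11 and MRP21, the higher genes farthest from all 3 strains were RSB1, ICS2 and APT2. RSB1, a transporter of sphingoid bases, had intensities of 53.95 and 45.7 in MDS3e MKT1e, 23.2 and 24.4 in MDS3e and 22.7 and 19.5 in MKT1e, against 15.3 and 14.9 in Ancestral, and rose by 1.08 ± 0.08 relative to Ancestral. APT2, a paralog of an adenine phosphoribosyltransferase, had 319.9 and 324 in MDS3e MKT1e, 218 and 226 in MDS3e and 211 and 208 in MKT1e, against 155 and 146 in Ancestral. ICS2 rose by 0.80 ± 0.09, while its single strains lay 0.11 and 0.17 from Ancestral.

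**Figure D4:**
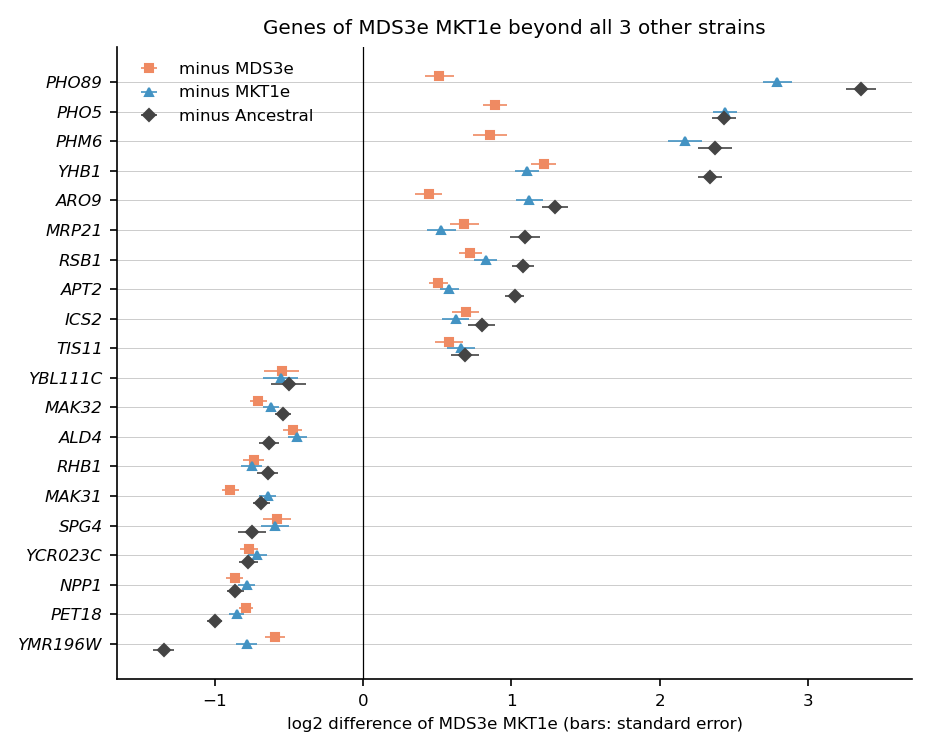
Log2 differences of MDS3e MKT1e minus MDS3e, MKT1e and Ancestral, with standard errors as bars, for the 10 genes in each direction whose smallest difference from the 3 other strains was largest. PHO89, PHO5, PHM6 and YHB1 lay highest and YMR196W, PET18 and NPP1 lowest.

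On the lower side, YMR196W had intensities of 165 and 158 in MDS3e MKT1e, 245 and 259 in MDS3e and 281 and 298 in MKT1e, against 405 and 466 in Ancestral, and fell by 1.34 ± 0.07 (adjusted p = 1.2e-06). Its single strains were between the double strain and Ancestral. SPG4, a gene of stationary phase, had 8.10 and 9.22 in MDS3e MKT1e, 22.3 and 19.4 in MDS3e and 25.8 and 17.1 in MKT1e, against 24.4 and 26.5 in Ancestral. AQY1, an aquaporin, fell by 1.22 ± 0.10, with 24.7 and 24.4 in MDS3e MKT1e, 47.9 and 39.6 in MDS3e and 37.2 and 40.4 in MKT1e, against 77.2 and 79.6 in Ancestral, and also lay below both single strains. Of the 10 lower genes farthest from the 3 other strains, PET18, NPP1, YCR023C, RHB1, MAK31 and MAK32 came from 1 stretch of chromosome III.

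The interaction term asked whether the double strain departed from the sum of its single strains on the log2 scale. Only 21 genes (0.385%) passed, 4 with a positive and 17 with a negative term, and 19 of them also differed from Ancestral. PHO5 had the term 0.90 ± 0.11 (adjusted p = 0.005), since MKT1e alone differed from Ancestral by -0.01 and MDS3e alone by 1.54, against 2.43 for the double strain. CYC1 had the term -0.76 ± 0.11 (adjusted p = 0.012), with single-strain differences of 0.75 in MDS3e and 1.94 in MKT1e. TKL2, a transketolase gene of the stress list, had 8.83 and 8.59 in MDS3e MKT1e, 6.46 and 5.74 in MDS3e and 86.4 and 75.6 in MKT1e, against 21.1 and 26.4 in Ancestral and the term -1.13 ± 0.13 (adjusted p = 0.0033). It was high in MKT1e alone and low in both strains with the evolved MDS3 allele.

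A run of neighbouring genes on chromosome III was lower in the double strain. The run was chosen after the values had been seen, and gene order was taken from the RefSeq annotation of the R64 assembly. From MAK32 (YCR019W) to RHB1 (YCR027C), all 11 measured neighbours had a lower mean in MDS3e MKT1e than in each of MDS3e, MKT1e and Ancestral. In each of the 3 comparisons 9 of the 11 passed the test and none was higher, and the interaction term was called negative for 7. The median difference of the run was -0.69 against Ancestral, -0.74 against MDS3e and -0.71 against MKT1e, which on the linear intensities is a median ratio of 0.610 to Ancestral.

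NPP1, PET18 and MAK31 show the step array by array. NPP1, a nucleotide pyrophosphatase, had intensities of 71.01 and 77.7 in MDS3e MKT1e, 149 and 148 in MDS3e and 142 and 137 in MKT1e, against 154 and 142 in Ancestral. PET18 had 72.7 and 73.9 in MDS3e MKT1e, 139.6 and 137 in MDS3e and 143 and 147 in MKT1e, against 165 and 161 in Ancestral. MAK31, a subunit of an N-terminal acetyltransferase, had 289 and 311 in MDS3e MKT1e, 554 and 587 in MDS3e and 489 and 464 in MKT1e, against 493 and 491 in Ancestral. In each of these genes both arrays of the double strain lay below all arrays of the 3 other strains, and the falls relative to Ancestral were 0.86 ± 0.06, 1.00 ± 0.05 and 0.69 ± 0.06, kept under all 25 alternatives.

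The other members agreed in direction with differing size. RHB1, which encodes the yeast Rheb GTPase, fell by 0.64 ± 0.07, MAK32 by 0.54 ± 0.05, YCR023C by 0.77 ± 0.06, the plasma membrane heat shock protein gene HSP30 by 0.79 ± 0.07 and YCR024C-B by 0.69 ± 0.08. PMP1, a small regulator of the proton pump, fell by 0.23 ± 0.07, and that call was lost after quantile normalization and without Ancestral replicate 1 or MDS3e MKT1e replicate 1. HTL1, a subunit of the chromatin remodeller RSC, differed by -0.35 ± 0.19 with replicates that did not agree in Ancestral (89.8 and 51.3) and passed only without Ancestral replicate 2.

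Within the run, SLM5 was the member nearest to Ancestral. It had intensities of 156 and 148 in MDS3e MKT1e, 161 and 160.4 in MDS3e and 294 and 282 in MKT1e, against 167 and 158 in Ancestral. The MKT1e arrays were high and those of the double strain were near Ancestral, at -0.09 ± 0.05 (adjusted p = 0.22), which passed after median centring, quantile normalization or cyclic loess. Relative to MKT1e SLM5 fell by 0.86 ± 0.05, and its interaction term of -0.84 was close to those of MAK31 and RHB1, at -0.85 and -0.84. The neighbour on one side, FEN2, differed by 0.12 and did not pass. The neighbour on the other side, SRD1, fell by 0.38 ± 0.09 relative to Ancestral and by 0.43 ± 0.09 relative to MDS3e (adjusted p = 0.01), and differed by -0.05 from MKT1e (adjusted p = 0.7). Among all windows of 9 neighbouring measured genes, the lowest median on chromosome III was -0.69, and the lowest on any other chromosome was -0.46, on chromosome IX in a window that begins with DAL1 of the allantoin genes. The median of all genes of chromosome III was -0.03, and the medians of all 16 chromosomes lay between that value and 0.06.

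**Figure D5:**
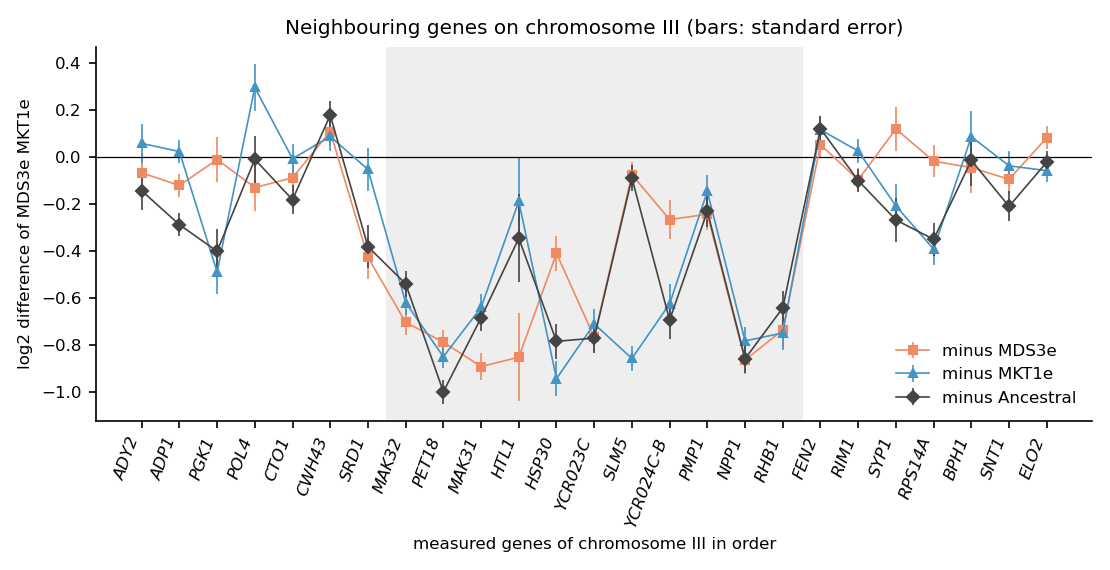
Log2 differences of MDS3e MKT1e minus MDS3e, MKT1e and Ancestral, with standard errors as bars, for measured neighbouring genes of chromosome III in their order, the run of 11 genes shaded. Inside the run all points lie below 0, PET18 against Ancestral being the lowest, and they return to near 0 at FEN2. Outside the run, PGK1, RPS14A, ADP1, SYP1, SNT1 and CTO1 also fell relative to Ancestral, by 0.40, 0.35, 0.29, 0.27, 0.21 and 0.18. SRD1 fell as well, by 0.38, and CWH43 rose by 0.18. PGK1, RPS14A, ADP1 and CWH43 differed from MDS3e by -0.01, -0.02, -0.12 and 0.11, and SYP1, SNT1 and CTO1 by 0.12, -0.10 and -0.09. None of these differences from MDS3e passed the test. Relative to MKT1e, PGK1 and RPS14A were lower by 0.49 and 0.39, while ADP1, SYP1, SNT1, CTO1 and CWH43 did not pass.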

How the data were processed

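Total RNA of 10 yeast cultures was measured on Affymetrix arrays. The authors deposited linear intensity values per probe set, processed with Affymetrix Expression Console (per the submitters' processing notes; no version or normalization is given there). Of 10928 probe sets, 7244 carried 1 gene symbol, 1 several and 3683 none; 5498 belonged to Saccharomyces cerevisiae, and the brightest probe set stood for each of 5449 genes, 47 of which had several. The 1746 probe sets of another species gave the background limit, their 95th percentile, an intensity of 2.33. A log2 value was computed from each deposited intensity plus 16.

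A mean for each genotype was fitted to all 10 arrays with limma 3.58.1 (R 4.3.3), with Benjamini-Hochberg adjusted p under 0.05 as the call. In 20 simulations of this comparison, each with 200 of 5449 genes changed, 58.3%, 93.8% and 99.7% of changes of 1.25-, 1.5- and 2-fold were recovered, with 4.69% false calls. The simulated noise was independent between genes and arrays, around 1 mean per gene for all strains. These rates therefore do not cover a shift shared by bright genes, deviations shared between arrays, or as many changes as the 2107 called here.

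Members and gene lists were chosen with earlier results of these data known. Named genes were the evolved genes, the 15 largest changes each way, up to 5 members of each list, members against their list, 10 genes each way beyond all 3 other strains, and the 8 largest interactions. Chromosome III genes, all phosphate and nitrogen list members, all genes with a called interaction, and HSP12, TFS1, NQM1, CTT1, ARN1, FET3 and PUF3 were added after their values were seen. Alternatives changed the pseudocount, the scaling, the choice of probe sets, the variance model, the arrays fitted, the threshold and the replicate block, and left out each array in turn. No promoter sequences were analysed here. Same-numbered MDS3e MKT1e and Ancestral cultures were not labelled as pairs, so no block was used. Deviations of same-numbered arrays correlated at 0.39, 0.24 and 0.19 among Ancestral, MKT1e and MDS3e, and at -0.14 to -0.20 between MDS3e MKT1e and every other strain.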

Additional observations from a re-analysis of the deposited data

Results flagged for a closer look

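The interaction term was called for 21 genes, which means that the double strain departed from the sum of its single strains on the log2 scale, by limma at an adjusted p under 0.05. The 4 positive terms were 0.94 for IMD2, 0.90 for PHO5, 0.56 for PLB2 and 0.45 for ANB1.

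Of the 17 negative terms, 7 belonged to the chromosome III run: -0.85 for MAK31, -0.84 for RHB1, -0.84 for SLM5, -0.79 for NPP1, -0.78 for MAK32, -0.71 for YCR023C and -0.64 for PET18. The others were -1.13 for TKL2, -1.08 for PAU4, -1.03 for YGR109W-A, -0.96 for YLL066W-B, -0.76 for CYC1, -0.72 for PAU18, -0.71 for OPT2, -0.70 for AIF1, -0.60 for YNL195C and -0.56 for ENT4.

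PHO5, TKL2, AIF1 and the 7 genes of the run kept the interaction call under all 25 alternatives. ANB1 kept it under 4, PAU4 under 12 of 24, YNL195C under 13 and OPT2 under 16. The probe sets of IMD2, PAU4, PAU18, YGR109W-A and YLL066W-B can read more than 1 gene.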

How the results depend on the processing

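Of 323 named genes that passed the test against Ancestral, 213 kept their call and direction under all 25 alternatives and 110 lost it under at least 1. The count against Ancestral was 2115 with the replicate number as a block, in place of 2107. Pairing by number came only from the labels' numbering, the deviations of same-numbered arrays correlated at -0.14 to -0.20 between MDS3e MKT1e and every other strain, and with the numbers of MDS3e MKT1e exchanged (an alternative added after seeing the data) the count was 2330 and the interaction count 34. Median centring gave 785 higher and 1423 lower. Fitting the 4 compared arrays alone gave 1468 genes against Ancestral, 863 higher and 605 lower, and no value for comparisons with the single strains. Array weights gave 1713 against Ancestral. At an adjusted p under 0.01 the counts were 1255 against Ancestral (742 higher, 513 lower), 475 against MDS3e, 612 against MKT1e, 12 interactions and 38 genes beyond all 3 strains.

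Leaving out 1 array at a time gave 1455 to 2068 genes against Ancestral, 851 to 1237 higher and 604 to 892 lower, 461 to 1088 against MDS3e, 543 to 1700 against MKT1e, 13 to 24 interactions and 62 to 173 genes beyond all 3 strains. The number lower was 604 without MDS3e MKT1e replicate 2. Against MDS3e the count was 531 or 461 without MDS3e replicate 1 or 2 and 546 without MDS3e MKT1e replicate 1. Against MKT1e it was 543 without MKT1e replicate 2 and 893 or 700 without MDS3e MKT1e replicate 1 or 2. Genes beyond all 3 strains numbered 62 without MKT1e replicate 2, 73 or 67 without MDS3e replicate 1 or 2, and 64 or 67 without MDS3e MKT1e replicate 1 or 2. Interactions numbered 13 without MDS3e replicate 2 and without MDS3e MKT1e replicate 2.

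Quantile normalization reversed the median of glycolysis to 0.0085 and of ribosomal proteins to 0.013, and the differences of ACO1 to 0.017, HSC82 to 0.017, LYS12 to 0.032, LYS9 to 0.086 and SAM2 to 0.012. Cyclic loess reversed ACO1 to 0.0031, LYS12 to 0.021 and LYS9 to 0.062. The medians of 11 of 53 lists changed sign after quantile normalization, of 7 after cyclic loess and of 6 after median centring, and apart from glycolysis and ribosomal proteins all of these medians lay between -0.04 and 0.05 on the deposited scale. The cause was not tested. No promoter motifs were searched, because no promoter table was used here.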

Other observations

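Some of the genes named for their own size stand next to each other, head to head, so that their promoters lie between them. PHO81 and YHB1 are such a pair, with differences of 1.24 and 2.34 in MDS3e MKT1e relative to Ancestral. SPL2 and ARO9 are another, with 2.36 and 1.29, and so are DAL1 and DAL4, with -0.82 and -1.44. MRPL40 and COX10 face each other end to end, with 1.04 and 1.02. Some tandem neighbours, on the same strand, moved together too, among them GDH3 and BDH2 with -0.97 and -1.09. Other tandem pairs, with both members higher, included MZM1 and RSM28, MSR1 and HXT4, COX10 and OYE3, and YAR068W and PHO11. Over all neighbouring measured genes, the differences of the 2 members of a pair correlated at r = 0.14 for 1287 divergent pairs, 0.05 for 1331 convergent pairs and 0.05 for 2399 tandem pairs. The rank correlations were 0.10, 0.05 and 0.02. Both members were called higher in 66 divergent, 86 convergent and 119 tandem pairs, and both lower in 42, 28 and 83. The 2 members were called in opposite directions in 68, 89 and 165 pairs. Of all genes 21.9% were higher and 16.7% lower. These correlations are across genes within the same arrays, so the points are not independent and no test is given.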
